A study of Ceratopteris richardii with 6 samples.

Results

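The comparison described here is that of the second day of auxin treatment in a fern: whole sporophyte seedlings of Ceratopteris richardii kept for 48 h on medium with the synthetic auxin 2,4-D against seedlings kept on it for 24 h. Its genes were chosen by level in the treated libraries alone, as those with at least 1 TPM in at least 2 of the 4 treated libraries. This gave 31085 of the 88641 assembled genes listed, or 35.1%. TPM is a measure of a gene's part in all transcripts of its library, corrected for gene length and scaled to the same total in each library.

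Both groups were wild type RNWT1, came from spores grown for 30 days on 1/2 MS medium, and were then kept on this medium with 2 µM 2,4-D, and each had 2 libraries. A mock group of 2 libraries from the same wild type entered the fit and is given beside the results, and the labels give its stage only as those 30 days. No untreated seedlings labelled as 24 h or 48 h were used here. The second day of 2,4-D, 1 more day on new medium and 1 more day of age therefore cannot be told apart. Whether replicate libraries stem from different cultures is not in the labels. The p-values below therefore rest on the spread among these libraries alone, and that spread may be technical.

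Auxin acts through TIR1/AFB receptors, which on binding it mark Aux/IAA repressors for destruction and so release auxin response factors on their target genes. First targets in flowering plants include the Aux/IAA genes themselves, the GH3 enzymes that conjugate auxin, and the SAUR genes. 2,4-D is bound by the same receptors and is broken down more slowly in most plant tissues than the native auxin, indole-3-acetic acid, so exposure to it tends to last. Ceratopteris is a homosporous fern much used as a model, whose sporophyte bears the roots and fronds. None of these genes could be looked up in this table. Its IDs were given by the transcript assembler Trinity, and 0 of them matched the 36816 genes of the available reference annotation of the species. Genes are therefore described by ID, level and size of change, and the sporophyte tissue label could not be checked against markers.

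The 31085 genes held between 98.87% and 99.18% of the TPM of each treated library. Depth is unknown, because TPM keep none, so the counting error of a value cannot be given. Between 56711 and 59991 genes were above 0 in a treated library, and the 2 libraries of 24 h had more genes above 0 (59991 and 58977) than the 2 of 48 h (56711 and 56992). The mock libraries had 56149 and 56506, fewer than any treated library and nearer to those of 48 h. Across the tested genes, log2(TPM + 1) of the 2 libraries of 1 time correlated with r = 0.988 at 24 h and 0.989 at 48 h, and that of libraries of different times with r from 0.935 to 0.938. These are correlations across genes, which are not independent replicates.

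Between 24 h and 48 h the level of a large part of the seedling transcriptome differed. By limma on log2(TPM + 1) with Benjamini-Hochberg adjustment over all tested genes, 12904 genes (41.5%) passed the adjusted threshold of 0.05. Of these, 3619 (11.6% of those tested) were higher at 48 h and 9285 (29.9%) were lower. Both 48 h libraries lay above both 24 h libraries for 6509 genes (20.9%) and below them for 16247 (52.3%), which is 73.2% without overlap. With only 2 libraries per time, such separation is also common among genes that do not differ, and its split by direction depends on the scaling, as given below. Because whole seedlings were sequenced, fewer cells of a type and less RNA per cell cannot be told apart for any gene that was lower.

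Most of these changes were under 2-fold. The median log2 difference, 48 h minus 24 h, was 0.76 among the higher genes and -0.61 among the lower ones, and 34.6% of the higher and 47% of the lower genes differed by less than 1.5-fold. Changes of at least 2-fold were called for 1227 higher genes (3.95% of those tested) and 1748 lower genes (5.62%). At least 4-fold changes were called for 239 higher (0.769%) and 216 lower genes (0.695%). At least 8-fold changes were called for 81 higher (0.261%) and 44 lower genes (0.142%). Lower genes were thus the more numerous in the calls as a whole and in the 2-fold class, and higher genes in the 4-fold and 8-fold classes. Folds are on the log2(TPM + 1) scale, which understates the changes of low genes.

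**Figure D1:**
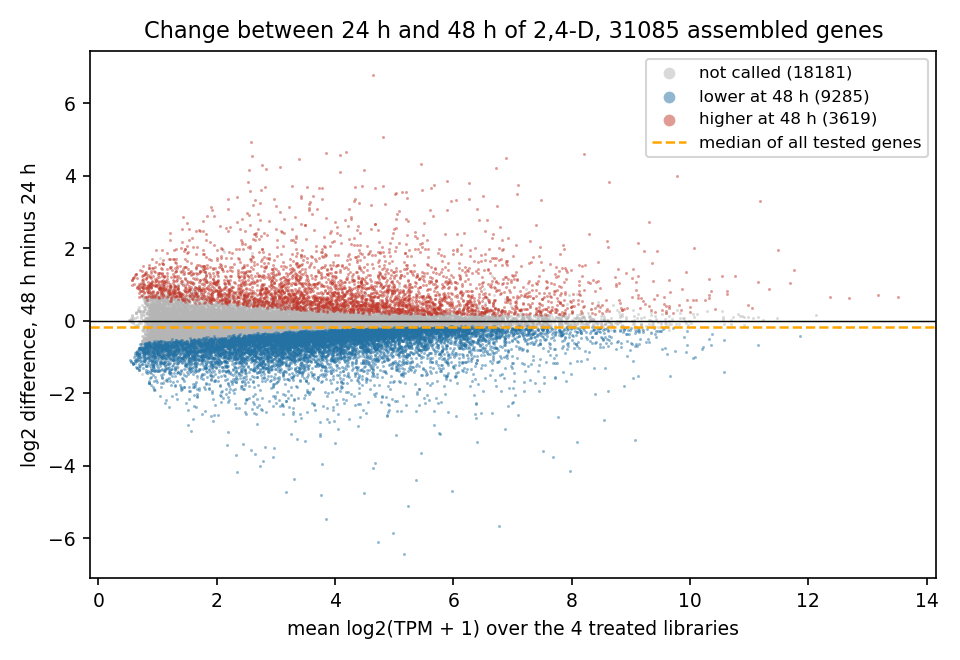
Log2 difference in level between 48 h and 24 h of 2,4-D (y axis) against mean log2(TPM + 1) over the 4 treated libraries (x axis), 1 point for each of 31085 genes, coloured by call in limma at an adjusted p under 0.05. The median of all genes (dashed line) lies below 0, at -0.18. Both the 3619 higher and the 9285 lower genes include genes under 5 TPM and genes of 100 TPM or more.

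The balance of directions among the many small changes depended on the scaling of the libraries. The median log2 difference of all tested genes was -0.18, and between single libraries it ranged from -0.22 to -0.14. Rescaling each library by a trimmed mean of its log ratios brought that median to -0.01, a shift of 0.17. After rescaling, 5636 genes (18.1%) were higher and 5305 (17.1%) lower. Higher genes as a share of the calls went from 28% to 51.5%. In the 2-fold class the share went from 41.2% to 58%, with 1597 higher (5.14%) and 1155 lower genes (3.72%), so the excess of lower genes in that class turned into an excess of higher ones. In the 4-fold class there were then 316 higher (1.02%) and 166 lower genes (0.534%), and in the 8-fold class 93 (0.299%) and 37 (0.119%). Under both scalings 8924 genes were called in the same direction, and 0 were called in opposite directions. Both 48 h libraries then lay above both 24 h libraries for 34.5% of tested genes and below them for 35.9%. On the deposited scale, 5762 lower genes were called without 24 h replicate 1, and 5829 without 48 h replicate 2.

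The spread between replicates shrank with level faster than the difference between times. Over all tested genes the median absolute difference between the libraries of 1 time on the log2 scale was 0.12 for each time, against 0.32 between the group means of the 2 times. Under 5 TPM these medians were 0.21, 0.21 and 0.37. At 100 TPM or more they were 0.06, 0.06 and 0.27. Replicates differed by at least 2-fold for 1.22% of genes at 24 h and 1.08% at 48 h, and the 2 times for 9.81%. Among the 1692 genes of 100 TPM or more, replicates of 48 h differed by 2-fold for 0% and those of 24 h for 0.355%, against 15% between the times. Among the 7175 genes of 20 to 100 TPM these shares were 0.0279%, 0.181% and 9.99%, so by this measure the 24 h replicates were closest in that bin.

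Calls were then set against abundance, measured as the mean TPM over the 4 treated libraries. Among the 11563 genes under 5 TPM, 6.94% were higher and 19.2% lower at 48 h. Among the 10655 genes of 5 to 20 TPM the shares were 11.2% and 35%, and among the 7175 genes of 20 to 100 TPM they were 16.6% and 38.4%. Among the 1692 genes of 100 TPM or more, 25.5% were higher and 34.7% lower. The share of higher genes increased from bin to bin, and so did the median log2 difference, from -0.22 under 5 TPM to -0.20, -0.13 and -0.07. Precision also increases with level, so a larger share of calls among abundant genes does not by itself show larger changes. In the 2-fold class, where low genes are also harder to call, the higher genes went from 2.84% through 3.81% and 4.75% to 8.98%, while the lower genes held 5.49%, 5.99%, 5.23% and 5.91%.

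**Figure D2:**
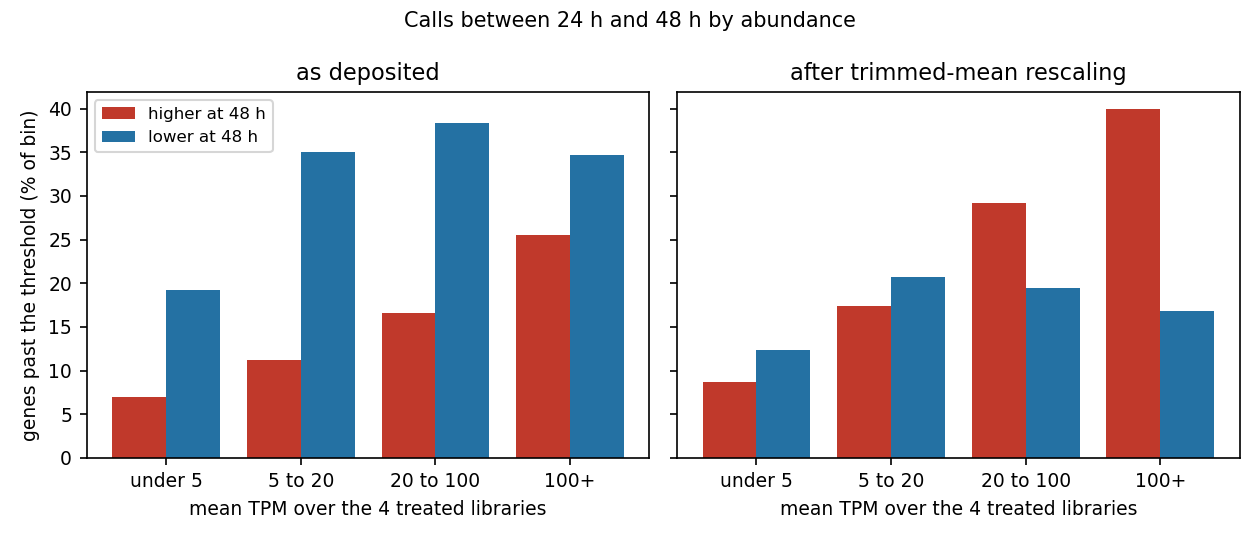
Share of genes called higher (red) or lower (blue) at 48 h than at 24 h (y axis, percent of the genes in a bin) in 4 bins of mean TPM (x axis), on the deposited TPM (left) and after trimmed-mean rescaling (right). Higher genes go from 6.94% in the lowest bin to 25.5% in the highest on the left, and from 8.74% to 39.9% on the right, where they outnumber lower genes in the 2 upper bins.

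This order of the higher genes was also found after rescaling. Higher genes then made up 8.74%, 17.4%, 29.2% and 39.9% of the 4 bins, and lower genes 12.3%, 20.7%, 19.5% and 16.8%. At 100 TPM or more the balance turned, with 675 higher and 284 lower genes, against 431 higher and 587 lower on the deposited scale. The share of the transcript pool held by these 1692 genes was 52.1% and 52.9% in the 24 h libraries and 56.3% and 57.4% in the 48 h libraries. The mock libraries lay between, at 54.7% and 54.1%. The genes of 5 to 20 TPM held 12.4% and 12.1% of the pool at 24 h and 11% and 10.5% at 48 h, and those of 20 to 100 TPM 31.3% and 31% at 24 h and 29.4% and 28.9% at 48 h. For each of these bins the libraries of the 2 times did not overlap.

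How much of the pool moved was measured by adding up the rises and the falls in mean TPM over the tested genes. Rises came to 16.6% of all TPM and falls to 16.3%, sums that the fixed total of TPM keeps nearly equal. After rescaling they came to 23.9% and 9.94% of that same fixed total. Rescaled libraries no longer add up to it, so these are not shares of a rescaled pool. The gap between them includes the shift in scale itself. Between the 2 libraries of 1 time, on the deposited scale, the sums came to at most 3.72% in either direction, so the move between times was larger than the spread between replicates. Between single libraries of the 2 times, falls and rises ranged from 16.4% to 16.9%. The rises were the more concentrated: 104 genes made up 50% of them, whereas 50% of the falls took 734 genes. The 10 genes with the largest rises gave 22.2% of the summed rises, and the 10 with the largest falls 6.26% of the summed falls. After rescaling the numbers for 50% were 181 and 409 genes, closer to each other but in the same order. Uneven numbers also arose between replicates, where 50% of the change took 1435 genes in one direction and 358 in the other at 24 h, and 1577 and 216 at 48 h.

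**Figure D3:**
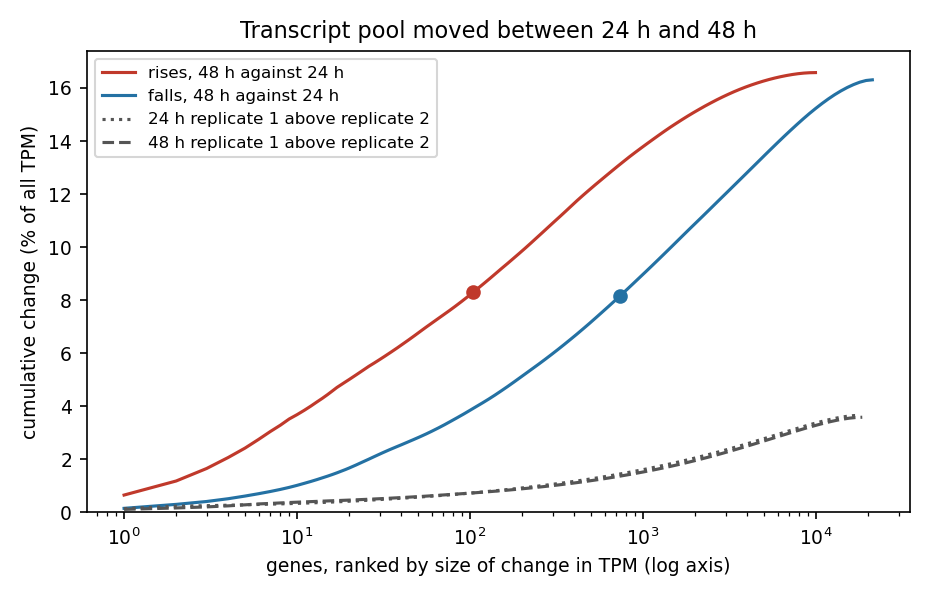
Cumulative change in TPM (y axis, percent of all TPM) over genes ranked by the size of their change (x axis, log scale), for rises (red) and falls (blue) of the group means from 24 h to 48 h and for the excess of replicate 1 over replicate 2 within each time (grey). Dots mark 50% of each sum, reached with 104 genes for the rises and 734 for the falls, and the replicate curves end at 3.66% and 3.59%.

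The 104 genes that made up 50% of the rises were abundant already at 24 h. Their median level was 351 TPM at 24 h and 829 TPM at 48 h, with 363 TPM in mock, and 16 of them were under 100 TPM at 24 h. Summed, they held 8.16% and 8.29% of the pool in the 24 h libraries and 16.4% and 16.6% in the 48 h libraries; the mock libraries had 9.19% and 9.11%. Of the 104 genes, 100 were called higher and 66 of those by at least 2-fold, beside 11.6% and 3.95% of all tested genes. The 734 genes behind 50% of the falls had medians of 189 TPM at 24 h, 98.8 TPM at 48 h and 172 TPM in mock. They held 23.1% and 23.7% of the pool at 24 h and 14.9% and 15.5% at 48 h, with 24.5% and 24.3% in mock. Of the 734, 677 were called lower, 284 of them by at least 2-fold, and 519 were called lower after rescaling. Among all tested genes the same calls were made for 29.9%, 5.62% and 17.1%. Both sets were picked by the change that these values describe.

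The gene with the largest rise in TPM, LE_TRINITY_DN3560_c0_g10, was at 730 and 759 TPM in the 24 h libraries and at 7216 and 7375 TPM in the 48 h libraries. Mock libraries had 860 and 825 TPM, so the 48 h libraries stood far above the other 4, which lay close together. From 744 ± 20.4 to 7295 ± 113 TPM (SD, n = 2 libraries), the gene rose 9.80-fold, with a log2 difference of 3.29 ± 0.08 (SE; limma adjusted p = 5.62e-07). It went from 0.0744% to 0.73% of the pool, and from rank 122 to rank 4 among the tested genes. Against mock its log2 difference was -0.18 ± 0.08 at 24 h (limma adjusted p = 0.173) and 3.11 ± 0.08 at 48 h (limma adjusted p = 7.2e-07); these comparisons share libraries with the one between the times. It was the 1 listed gene of its assembly component, the part of an ID before its last g number, within which genes can share reads.

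The next largest rise was that of SHA_TRINITY_DN2378_c0_g1, the most abundant tested gene at both times. It was at 9117 and 9631 TPM in the 24 h libraries and at 14944 and 14407 TPM in the 48 h libraries, with 10878 and 9978 TPM in mock. The 48 h libraries were again above the other 4, but by a smaller factor. The mean went from 9374 ± 363 to 14675 ± 379 TPM (SD, n = 2 libraries), a ratio of 1.57, and the gene's share of the pool from 0.937% to 1.47%. Its log2 difference was 0.65 ± 0.15 (SE; limma adjusted p = 0.013). The call was lost when any treated library was left out, with limma adjusted p of 0.111 and 0.081 without 24 h replicates 1 and 2, and 0.109 and 0.0976 without 48 h replicates 1 and 2. It was also lost against a change of 1.5-fold (limma adjusted p = 1).

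Among falling genes, SHA_TRINITY_DN6791_c0_g1 lost the most TPM. Its level was 2448 and 2518 TPM in the 24 h libraries and 937 and 944 TPM in the 48 h libraries, against 2643 and 2533 TPM in mock. The 48 h libraries lay apart from the other 4 and close to each other. The fall from 2483 ± 49.4 to 940 ± 4.87 TPM (SD, n = 2 libraries) was a log2 difference of -1.40 ± 0.08 (SE; limma adjusted p = 1.87e-05). Its rank among the tested genes went from 11 to 84.

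RT_TRINITY_DN10081_c0_g1 was at 1638 and 1698 TPM in the 24 h libraries and at 151 and 193 TPM in the 48 h libraries. Mock libraries had 1893 and 2042 TPM, so the 3 groups did not overlap and 48 h was the lowest. The mean went from 1668 ± 42.9 to 172 ± 30.3 TPM (SD, n = 2 libraries), a log2 difference of -3.28 ± 0.12 (SE; limma adjusted p = 2.5e-06). Its rank among the tested genes was 28 at 24 h and 887 at 48 h. At 24 h neither falling gene differed from mock by the test (log2 difference of -0.06 ± 0.08 and limma adjusted p of 0.654 for SHA_TRINITY_DN6791_c0_g1, -0.24 ± 0.12 and 0.219 for RT_TRINITY_DN10081_c0_g1). Both were the 1 listed gene of their component.

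**Figure D4:**
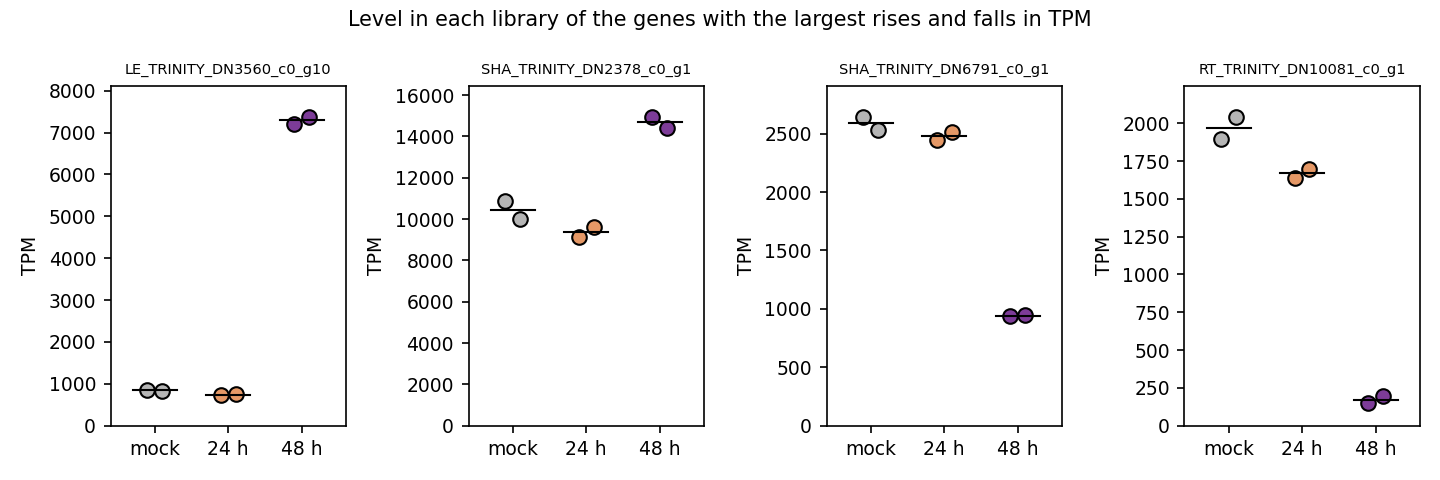
TPM in each library (points, y axis in TPM from 0, scaled per gene) in mock, 24 h and 48 h of 2,4-D, with group means as lines, for the genes with the 2 largest rises and the 2 largest falls in TPM from 24 h to 48 h. In each panel the 48 h libraries lie outside the range of the other 4: LE_TRINITY_DN3560_c0_g10 is at 7216 and 7375 TPM against 730 to 860 TPM, and RT_TRINITY_DN10081_c0_g1 at 151 and 193 TPM against 1638 to 2042 TPM.

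Of the 8 genes that came next by rise in TPM, an LA gene went from 220 to 3532 TPM, a log2 difference of 4.00, an LE gene from 1463 to 5620 TPM, a log2 difference of 1.94, and an RT gene from 2146 to 5673 TPM, a log2 difference of 1.40. An RO gene at 5278 TPM, an LE gene at 4255 TPM and an SHA gene at 7266 TPM at 24 h rose by 0.64 to 0.72 on the log2 scale. For the remaining 2, both RO genes, the 24 h libraries were far apart, at 1708 and 3128 TPM and at 1166 and 2108 TPM, and limma gave adjusted p of 0.0219 and 0.0404. Here LA, LE, RO, RT and SHA are the 5 prefixes of the IDs, which the labels do not explain.

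Among the other large falls, an SHA gene went from 1057 to 58.9 TPM, a log2 difference of -4.14, and another SHA gene from 782 to 14.5 TPM, a log2 difference of -5.66. RO and RT genes at 965 and 869 TPM went to 144 and 84.6 TPM. The next 2 falls after those of the genes named by ID, from 4294 to 3208 TPM in an RT gene and from 2871 to 1822 TPM in an RO gene, passed on the deposited scale (limma adjusted p of 0.0414 and 0.0102) but not after rescaling (0.361 and 0.0816). These 2 genes were at 9570 and 5980 TPM in mock, above both treatment times.

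The list of the most abundant genes changed in part. At least 1000 TPM was reached by 64 genes at 24 h and 74 at 48 h, and 48 genes were in both lists, which is 48 of 64 and 48 of 74. Of the 26 genes that reached this level at 48 h alone, 25 were called higher and 14 by at least 2-fold, and the lowest of them stood at 59.5 TPM at 24 h. Of the 16 that left, 14 were called lower and 5 by at least 2-fold, and the lowest was at 58.9 TPM at 48 h. These genes were picked by the change in level between the times, so their calls follow from the choice and are given as a description, beside 11.6% higher and 29.9% lower among all tested genes. The 74 genes of the 48 h list held 13% of the pool at 24 h and 18.9% at 48 h. The 64 genes of the 24 h list held 13.5% at 24 h and 15.6% at 48 h.

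The levels of the genes with the largest folds are given as a description, since a large rise needs a low start and a large fall a high one. The 81 genes at least 8-fold higher at 48 h had a median of 3.97 TPM at 24 h and 70.9 TPM at 48 h, and 16 of them were under 1 TPM at 24 h while 31 reached 100 TPM at 48 h. Their sum was 0.175% and 0.178% of the pool in the 24 h libraries and 2.28% and 2.25% in the 48 h libraries. The 44 genes at least 8-fold lower had a median of 62 TPM at 24 h and 2.74 TPM at 48 h, and 18 of them were at 100 TPM or more at 24 h. They held 0.909% and 0.937% of the pool at 24 h and 0.0563% and 0.0637% at 48 h. The 2 libraries of a time stayed close for both classes, and both classes were chosen by this difference.

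Mock levels were set beside these classes. For the 81 genes at least 8-fold higher, the median in mock was 6.94 TPM and the pool share 0.308% and 0.357%. Their median log2 difference was -0.51 for 24 h against mock and 3.04 for 48 h against mock. Of the 81, 41 were called lower and 0 higher than mock at 24 h (5.04% and 11.5% of all tested genes), and 78 were called higher than mock at 48 h (16.6% of all tested genes). For the 44 genes at least 8-fold lower, mock was at a median of 49.9 TPM and at pool shares of 0.854% and 0.857%, and the median log2 difference was 0.20 for 24 h against mock and -3.50 for 48 h against mock. Of the 44, 13 were called higher and 3 lower than mock at 24 h, and 44 lower at 48 h (22.7% of all tested genes). The 3 comparisons share libraries, and a class chosen for being low at 24 h leans to values below mock at 24 h, so nothing is read from these counts beyond the levels.

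The same sums were taken for the wider 4-fold classes. The 239 genes at least 4-fold higher held 0.746% and 0.852% of the pool in mock, 0.5% and 0.487% at 24 h, and 3.91% and 3.86% at 48 h. The 216 genes at least 4-fold lower held 2% and 2.01% in mock, 1.95% and 2.03% at 24 h, and 0.24% and 0.264% at 48 h. These classes too were chosen by the difference between the times.

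At the low end, 23 genes were listed at 0 in both 48 h libraries and at 1 TPM or more in both 24 h libraries, where single values ran from 1.05 to 5.52 TPM. Conversely, 13 genes were listed at 0 in both 24 h libraries and at 1 TPM or more in both 48 h libraries, from 1.01 to 7.74 TPM. Of the 23 genes 21 were called lower, and of the 13 genes 13 were called higher, beside 29.9% and 11.6% of all tested genes; these calls follow from how the genes were picked. Of the 23 genes, 16 were above 0 in both mock libraries and 1 was at 0 in both. Of the 13 genes, 7 were above 0 in both mock libraries and 2 at 0 in both. A TPM of 0 can be a failed estimate and the depth is unknown, so no fold is given.

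The rule on level also shapes the calls near its limit. Of the tested genes, 26547 reached 1 TPM in all 4 treated libraries, 1982 in 3 and 2556 in 2. Of the last, 1307 passed through the 2 libraries of 24 h, with 694 called lower at 48 h (29.9% of all tested genes). Another 529 passed through the 2 libraries of 48 h, with 330 called higher (11.6% of all tested genes). The 720 that reached 1 TPM in 1 library of each time gave 0 calls. Such genes were kept because of the time at which they were high, so these counts describe the filter. A further 3212 genes reached 1 TPM in 1 treated library and were not tested.

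The tested genes were also grouped by ID prefix, within bins of abundance. LE genes made up 15.6% of the tested genes, 25.9% of those at least 4-fold higher and 24.5% of those at least 4-fold lower. After rescaling the shares were 25.6% and 22.3%. In each abundance bin LE genes had the highest share of at least 2-fold higher calls, 4.23%, 5.63%, 6.65% and 12.4% from the lowest to the highest bin, against 2.84%, 3.81%, 4.75% and 8.98% of all tested genes. After rescaling RT genes passed them in the bin of 20 to 100 TPM, with 7.88% against 7.79%. In the lower 3 bins LE genes also had the highest share of at least 2-fold lower calls, 7.6%, 8.02% and 7.35%. Genes are not independent replicates, and no test was made on these shares.

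RT genes differed from all tested genes in the same way in every bin. Their share of at least 2-fold higher calls was above that of all tested genes in each bin, at 3.38%, 5.3%, 5.98% and 11%, and their share of lower calls was below it in each bin, at 4.32%, 5.34%, 4.29% and 4.27%; after rescaling they lay on the same sides in every bin. Their median log2 difference was -0.14, against -0.18 for all tested genes and -0.21 for LA genes. LA and SHA genes were below the share of all tested genes for 2-fold higher calls in each bin, also after rescaling. Of the pool, LE genes held 19% and 19.3% at 24 h and 20.7% and 21% at 48 h, and LA genes 23.8% and 23.8% at 24 h and 23.1% and 23.1% at 48 h. The gene LE_TRINITY_DN3560_c0_g10 alone added 0.655 percentage points of the LE share.

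**Figure D5:**
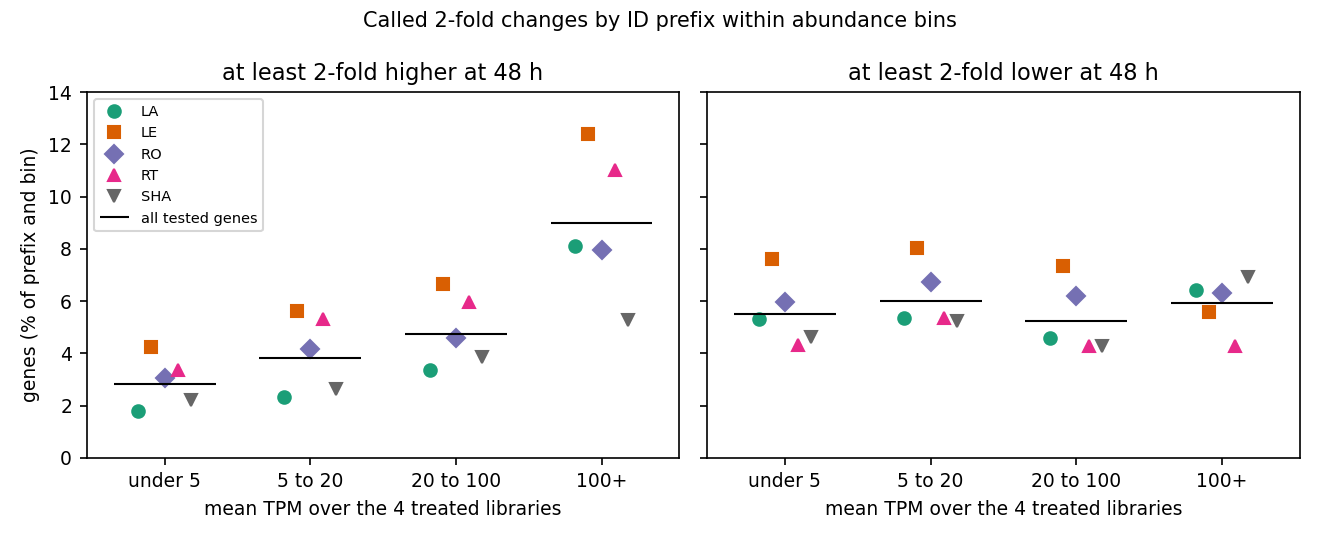
Share of genes called at least 2-fold higher (left) or lower (right) at 48 h than at 24 h (y axis, percent of the genes of a prefix in a bin) in 4 bins of mean TPM (x axis), with a symbol per ID prefix and a line for all tested genes. LE genes reach 12.4% higher in the top bin against 8.98% of all tested genes, and RT genes lie below the line on the right in every bin.

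Genes of 1 assembly component can share reads, and how far reads moved within components was not tested. In all, 2297 tested genes (7.39%) shared a component with another tested gene, in 1105 components. Of these components, 66 held both a higher and a lower gene, and 4 held both at 2-fold or more. By comparison, 52 held 2 or more higher genes and 150 held 2 or more lower genes. Calls were about as frequent in shared components, with 13.2% higher and 30.7% lower, as among the other tested genes, with 11.5% and 29.8%.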

How the data were processed

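Total RNA of whole seedlings was extracted with TRIzol and sequenced on the Illumina platform, per the labels' protocols. The authors deposited 1 table of TPM per assembled gene, rounded to 0.01, whose name credits RSEM. The tools RSEM 1.3.2, STAR 2.7.2b, Bowtie2 2.3.4.3 and Trim Galore 0.5.0 and the build TAIR10 are listed per the submitters' processing notes, without their roles. Columns were matched to the 6 libraries by day and replicate in their names, with day 0 taken as mock. Depth is unknown.

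Genes that reached 1 TPM in 2 or more of the 4 treated libraries were tested on log2(TPM + 1) by limma 3.58.1 in R 4.3.3, with all 6 libraries in 1 fit, group as factor, a mean-variance trend (3 residual degrees of freedom, prior 4.17), two-sided tests and Benjamini-Hochberg adjustment at 0.05. Trimmed-mean rescaling left out a fraction of 0.3 of the log ratios on each side, over genes that reached 1 TPM in all 6 libraries. The procedure was tested on simulated data. Errors are SD over libraries or SE from the model. Genes named by ID were those past the threshold, without overlap between libraries, with the 2 largest rises and 2 largest falls in mean TPM. Other genes with large moves, given without ID, and the alternatives on the number of genes behind 50% of a sum were chosen after the data were seen. The comparison and its groupings were chosen with earlier results of these data known. Other scalings, filters, pseudocounts, fits and leaving out each library were tried as alternatives.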

Additional observations from a re-analysis of the deposited data

How the results depend on the processing

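The counts of calls moved with the scaling, the pseudocount, the size of change tested and the libraries used. Against 3619 higher, 9285 lower and 1748 at least 2-fold lower genes, trimmed-mean rescaling gave 5636, 5305 and 1155, and quantile normalization gave 5030, 5930 and 1184. Lower genes were thus still the more numerous among all calls under quantile normalization. In its 2-fold class they were not, with 1622 higher against 1184 lower genes. The median log2 difference of -0.18 became -0.010 and -0.030 under these. Trimmed-mean rescaling centres the log ratios by construction, and quantile normalization gives all libraries the same distribution of values. The median was -0.11 with a pseudocount of 5 and -0.11 with no filter. The 2-fold classes (1227 higher, 1748 lower) held 2670 lower genes with a pseudocount of 0.1, and 644 higher and 649 lower genes with a pseudocount of 5, which shrinks changes of low genes. Tested against a change of 1.5-fold, 941 genes were higher and 1363 lower. Summed falls of 163070 TPM became 99360 TPM after rescaling, 167900 TPM with no filter and 156110 TPM with at least 5 TPM in 2 treated libraries. The genes behind 50% of the rises and falls, 104 and 734, became 181 and 409 after rescaling.

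Leaving out 1 library at a time gave 2445 to 3740 higher and 5762 to 9311 lower genes, 1141 to 1364 and 1700 to 1895 in the 2-fold classes, medians from -0.20 to -0.15, summed falls from 163070 to 165110 TPM, and 102 to 110 and 659 to 837 genes behind 50% of rises and falls. Each such fit assumes that a lone library varies like the other groups. LE_TRINITY_DN3560_c0_g10, SHA_TRINITY_DN6791_c0_g1 and RT_TRINITY_DN10081_c0_g1 passed in the same direction under all 17 alternatives run. SHA_TRINITY_DN2378_c0_g1 passed under 11, and its difference was 0 under quantile normalization, which sets the most abundant gene of every library to 1 value.

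Replicate numbers gave no sign of pairing: deviations of same-numbered libraries correlated across genes with r = 0.06 (mock and 24 h), -0.01 (mock and 48 h) and 0.03 (24 h and 48 h). With the replicate number as a block, 3582 genes were higher and 9038 lower, 1235 and 1758 of them by at least 2-fold.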
